A study of Bos taurus with 12 samples.

Results

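The comparison described here set cumulus cells of oocytes at chromatin stage GV2 against cumulus cells of oocytes at stage GV0, on the 4 arrays of the series that carried GV2 RNA, out of 12 arrays in all. The 4 arrays were chosen by their label and not by any measured value, and the results are given across the whole array. Each array held RNA of a GV2 pool, labelled with Cy5, and RNA of a GV0 pool, labelled with Cy3. The cells came from cattle ovaries obtained at a slaughterhouse, were vortexed off single cumulus-oocyte complexes in Hepes-buffered medium and were frozen, and the bare oocyte was then stained with a Hoechst DNA dye to read its stage. The cells of 10 complexes of 1 stage formed a pool, and the RNA was amplified in a two-round procedure before labelling. No treatment was applied, and age and breed of the animals are not given in the sources used here. The design text speaks of 4 biological replicates, but no label ties a pool to animals of its own, and the p-values reflect only how far the pools varied. In pools of cells, a smaller number of cells of a type and less RNA per cell cannot be told apart.

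Cumulus cells are the granulosa cells that enclose the oocyte in the antral follicle, reach it with fine projections that end in gap junctions, and feed it with metabolites and cyclic nucleotides. While the bovine oocyte completes its growth, the chromatin in its nucleus, the germinal vesicle, condenses stepwise. GV0 is the stage of diffuse chromatin, and GV1, GV2 and GV3 are stages of increasing condensation. The comparison asked which transcripts of the surrounding cells differ between a GV2 and a GV0 oocyte.

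GV0 RNA was in the Cy3 channel on each of the 12 arrays and no dye was swapped, so stage and dye cannot be told apart in any ratio of GV2 over GV0. The 4 GV2 arrays lay on 1 slide, so slide and stage cannot be told apart in GV2 against GV1 or GV3. The median spot signal of the GV2 arrays was 132 to 201 in Cy5 and 277 to 359 in Cy3. Between 69.1% and 78.6% of probes were above background, as set by the negative controls, in GV2, and between 73.7% and 77.6% in GV0. The log2 ratios of different GV2 arrays correlated across probes at 0.05 to 0.39 (6 pairs), as a description of arrays that share their slide and probes. A GV2 array and the GV1 or GV3 array with the same area number in its label correlated at 0.64 to 0.80 (8 pairs). The ratios to GV0 thus followed the area more than the stage. With 4 arrays a stage, array number sets the precision.

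Of 36321 probes tested, 4270 (11.8%) passed an adjusted p under 0.05 in limma, 1968 higher and 2302 lower in GV2 than in GV0. Taken as 1 probe per gene, 620 of 13534 genes were higher in GV2 (4.58%) and 776 were lower (5.73%), together 10.3%. A gene is said below to have risen, fallen or changed only where it passed this test. Most changes were small: the median size among the called genes was 0.42 on the log2 scale, 57 genes rose and 67 fell by at least 2-fold, and 250 rose and 183 fell by at least 1.5-fold. The ratio had the same sign on all 4 arrays in 1370 of the 1396 called genes, against 3995 (29.5%) of the genes tested. The GV2 and GV0 signals did not overlap in 907 of the called genes, against 1447 (10.7%) of the genes tested. Both counts rest on the same values as the call, so they are no support of their own. The median over all genes was 0.00.

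These counts depended on the fit. With limma on the 4 GV2 arrays alone no probe passed, although 7547 had an unadjusted p under 0.05, and the smallest adjusted p was 0.0993. With the area number as a block 10805 probes passed. That fit takes out of the error what arrays of the same area number share. If these arrays share a GV0 pool, which no label says, the spread between GV0 pools is left out of the error. The p-values against GV0 in that fit, and all counts from it, may then run low and high, respectively. Without GV2 array 1, 2, 3 or 4 in turn, 2673, 2051, 2968 and 1672 probes passed, and without area 1, 2, 3 or 4 on all 3 slides, 2372, 1196, 2172 and 1233 passed. With median spot signals 442 probes passed, with the authors' deposited log2 ratios 505, and with flagged spots kept in the background fit 396.

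**Figure D1:**
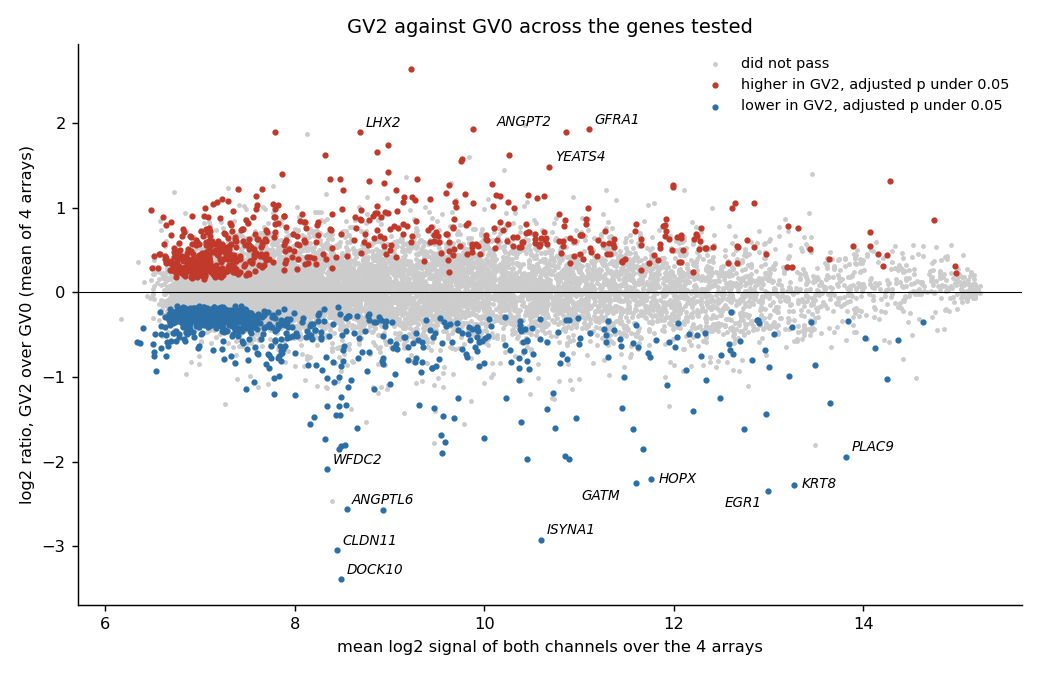
Mean log2 ratio of GV2 over GV0 on the 4 GV2 arrays (vertical axis, log2 units) against the mean log2 signal of both channels (horizontal axis), 1 point for each of the 13534 genes tested. Red points rose and blue points fell at an adjusted p under 0.05 (620 and 776 genes), grey points did not pass, and 14 genes named in the text are labelled.

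The plot of ratio against signal shows that the dimmest genes were called most often but with small ratios. Among 5 groups of genes of equal size, ordered by signal, the dimmest had 169 genes that rose and 222 that fell in GV2 (14.4%), with a median size of 0.29, and the brightest had 111 that rose and 89 that fell (7.39%), with a median size of 0.62. The spread between arrays was 0.13 (median SD, n = 4) in the dimmest group and 0.38 in the brightest. The 153 negative control spots, which match no transcript, had a median log2 ratio of -0.11, -0.10, -0.05 and -0.14 on GV2 arrays 1 to 4, with an SD over spots of 0.14 to 0.15. The part of such an offset in the counts of dim genes was not tested.

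**Figure D2:**
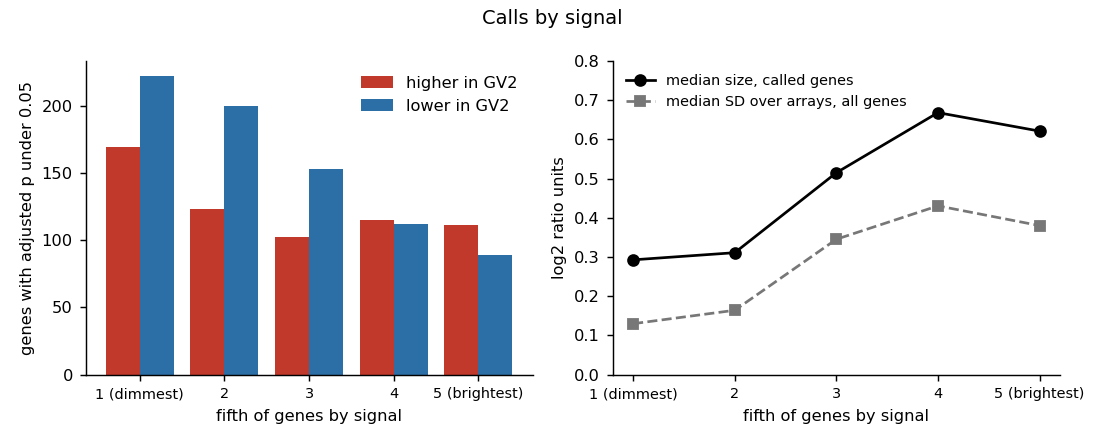
Left, number of genes that rose (red) and fell (blue) in GV2 relative to GV0, in 5 equal groups of genes ordered by signal. Right, median absolute log2 ratio of the called genes (circles) and median SD of the log2 ratio over the 4 arrays for all genes of the group (squares), both in log2 units. Calls were most frequent in the dimmest group (169 and 222 genes), where the ratios were smallest.

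Among genes that rose with 1 sign on all 4 arrays, the 15 of largest ratio included receptors, secreted proteins and regulators of transcription. GFRA1, the co-receptor through which cells bind the neurotrophic factor GDNF, had signals of 6193, 4402, 3178 and 3964 in GV2 on arrays 1 to 4, against 1483, 879, 2065 and 606 in GV0. ANGPT2, an angiopoietin that binds the TIE2 receptor and opposes ANGPT1 there, had 2577, 4802, 4375 and 3033 in GV2 and 819, 616, 1306 and 1291 in GV0. In both genes every GV2 signal lay above every GV0 signal, and the log2 ratios were 1.93 (SE 0.31, adjusted p = 0.00456) for GFRA1 and 1.90 (SE 0.30, adjusted p = 0.00402) for ANGPT2. The secreted glutathione peroxidase GPX3 had 1879, 1565, 1376 and 2804 in GV2, against 446, 600, 781 and 262 in GV0. Its ratio of 1.92 (SE 0.38) was widest on array 4, which held both the highest GV2 and the lowest GV0 signal. NPY1R, a receptor of neuropeptide Y, had 666, 1030, 978 and 716 in GV2 and 440, 394, 228 and 123 in GV0, a ratio of 1.66 (SE 0.40), and 2 other probes of the gene also rose.

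Among the regulators of transcription, LHX2, a LIM homeodomain factor, had 397, 855, 946 and 1251 in GV2 and 238, 234, 253 and 152 in GV0. YEATS4, which reads acetylated histones in histone acetyltransferase and histone exchange complexes, had 2245, 2784, 2831 and 3255 in GV2, against 1152, 1125, 1023 and 708 in GV0. Groups did not overlap in either gene, with ratios of 1.89 (SE 0.29) for LHX2 and 1.48 (SE 0.16) for YEATS4. LMO2, a LIM-only cofactor, had 811, 2145, 1492 and 1966 in GV2 and 613, 669, 681 and 231 in GV0, a ratio of 1.58 (SE 0.39) that was narrowest on array 1. SPRY2, which dampens growth factor signalling to ERK, had 1295, 1778, 1855 and 1118 in GV2 against 486, 450, 509 and 586 in GV0, a ratio of 1.55 (SE 0.28). CADPS2, a priming factor of dense-core vesicle release, had 870, 690, 829 and 949 in GV2 and 364, 343, 402 and 184 in GV0, a ratio of 1.42 (SE 0.20).

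The other genes among the 15 of largest rise were PARM1, a mucin-like membrane protein (1.74, SE 0.30), CTTNBP2NL, a partner of striatin complexes (1.62, SE 0.22), the threonyl-tRNA synthetase-like TARS3 (1.62, SE 0.43), PELI1, a ubiquitin ligase of Toll-like receptor signalling (1.39, SE 0.19), the F-box protein FBXO8 (1.34, SE 0.30) and PLAU, the urokinase that activates plasminogen (1.34, SE 0.31). TARS3 was the 1 gene of the 30 of largest change whose groups overlapped, with 1021, 2841, 3473 and 2101 in GV2 and 922, 1287, 483 and 416 in GV0. The 30 were picked by size and sign on these same values, and 10.7% of all genes tested did not overlap. ANGPT2, LHX2, CTTNBP2NL, YEATS4 and CADPS2 passed in each alternative but the fit on the GV2 arrays alone. NPY1R, TARS3 and LMO2 did not pass without GV2 array 2, 3 or 4 (adjusted p up to 0.114, 0.143 and 0.115), and FBXO8 and PLAU did not pass without array 2 or 4 (up to 0.0879 and 0.0963). GFRA1 and PARM1 did not pass without area 2 on all slides (0.0556 and 0.0624), GPX3 without area 1 or 2 (up to 0.0650), and SPRY2 without area 3 (0.0544).

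A larger ratio than any of these was measured for LYSB, a lysozyme gene, which was chosen after its values were seen because the ratio turned sign on array 1. Its signals were 334, 3094, 3035 and 1582 in GV2 and 477, 296, 191 and 125 in GV0, so GV2 exceeded GV0 by far on arrays 2, 3 and 4 and lay below it on array 1. The log2 ratio of LYSB was 2.63 (SE 0.67, adjusted p = 0.0305). LYZ2, given with the lysosomal genes, rose by 1.89 and also lacked 1 sign on all arrays.

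**Figure D3:**
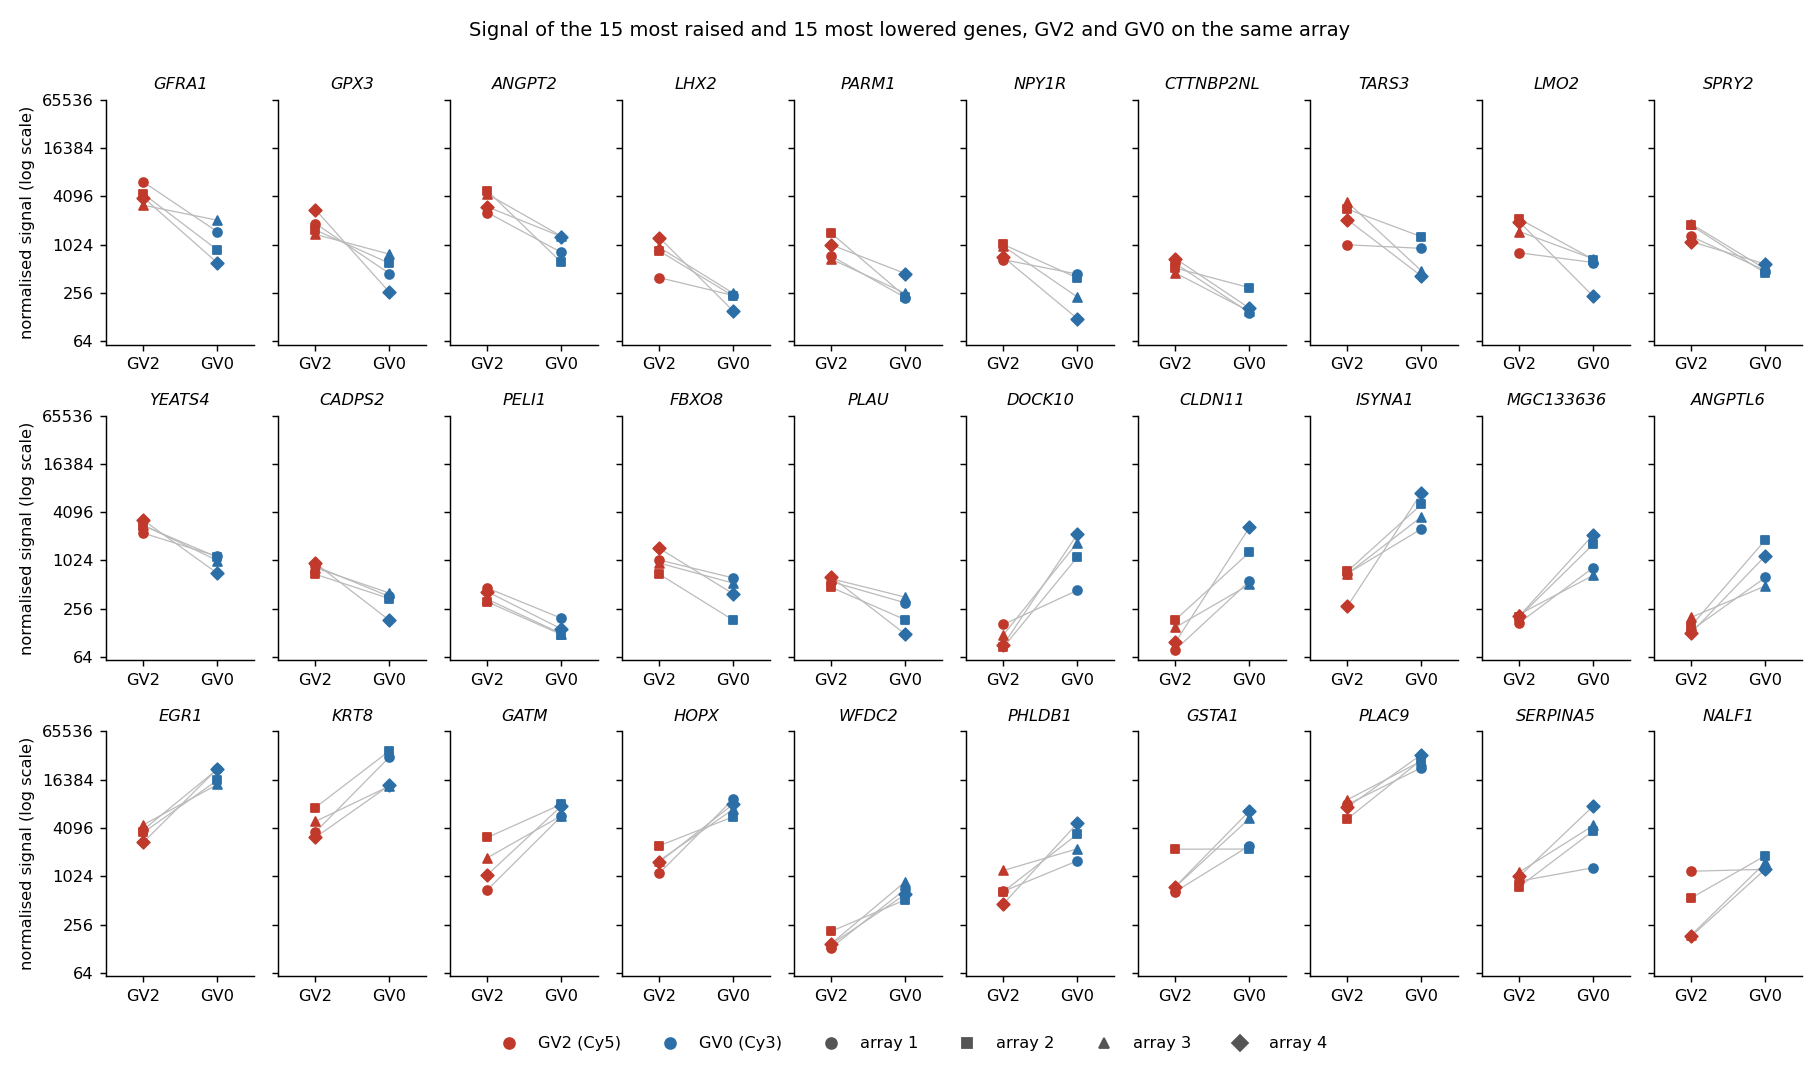
Normalised signal (log axis) of the 15 genes of largest rise and the 15 of largest fall in GV2, with GV2 (red, Cy5) left and GV0 (blue, Cy3) right; marker shapes are arrays 1 to 4 and grey lines join the 2 channels of an array. GV2 and GV0 signals do not overlap in 29 of the 30 genes, TARS3 being the other, against 1447 of all 13534 genes tested (10.7%). The 30 passed, had 1 sign on all 4 arrays and were picked by size on these same values. Their separation is therefore no support of its own. The size of the difference varies between arrays.

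Among genes that fell with 1 sign on all 4 arrays, the 15 of largest ratio included metabolic enzymes, a keratin, a claudin and secreted proteins. ISYNA1, which makes inositol phosphate from glucose 6-phosphate, had 702, 750, 697 and 274 in GV2, against 2536, 5123, 3581 and 7109 in GV0. GATM, the first enzyme of creatine synthesis and a gene known from granulosa cells, had 693, 3119, 1741 and 1069 in GV2 and 5749, 8085, 5830 and 7692 in GV0. Every GV2 signal lay below every GV0 signal in both, and the log2 ratios were -2.92 (SE 0.38, adjusted p = 0.00159) for ISYNA1 and -2.25 (SE 0.35, adjusted p = 0.00361) for GATM. GSTA1, a glutathione transferase, had 661, 2228, 756 and 763 in GV2, against 2458, 2239, 5379 and 6670 in GV0. GSTA1 was equal in both channels of array 2 (-0.01) and lower in GV2 by 1.89 to 3.13 on the others, a mean ratio of -1.97 (SE 0.50).

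KRT8, a keratin of simple epithelia, was a bright gene, with 3633, 7356, 4936 and 3120 in GV2 and 31364, 37471, 13619 and 13932 in GV0. CLDN11, a tight junction claudin, had 79, 187, 150 and 98 in GV2 and 565, 1295, 514 and 2642 in GV0. DOCK10, an exchange factor that activates CDC42 and RAC, had 163, 85, 121 and 91 in GV2, against 435, 1130, 1714 and 2182 in GV0. Of the 4 GV2 arrays, CLDN11 was above background on 2 and DOCK10 on 1, whereas both were above it on all 4 in GV0. The log2 ratios were -2.27 (SE 0.42) for KRT8, -3.04 (SE 0.68) for CLDN11 and -3.39 (SE 0.54) for DOCK10. PHLDB1, a pleckstrin homology domain protein, fell by 1.97 (SE 0.36) and NALF1, an accessory factor of the sodium leak channel, by 1.90 (SE 0.47).

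HOPX, an atypical homeodomain protein that does not bind DNA, had 1121, 2464, 1605 and 1539 in GV2, against 9421, 5668, 7056 and 8159 in GV0. PLAC9, a small secreted protein, varied little between arrays, with 8039, 5318, 9204 and 7431 in GV2 and 23156, 28982, 28002 and 33737 in GV0. WFDC2, a secreted protein with whey acidic protein domains, had 132, 212, 149 and 146 in GV2, against 709, 522, 881 and 610 in GV0. These groups lay far apart in each gene, and the ratios were -2.20 (SE 0.32) for HOPX, -1.94 (SE 0.16) for PLAC9 and -2.09 (SE 0.20) for WFDC2. ANGPTL6, an angiopoietin-like secreted protein, had 138, 157, 201 and 129 in GV2 and 629, 1853, 494 and 1173 in GV0, a ratio of -2.56 (SE 0.34). SERPINA5, an inhibitor of serine proteases that include activated protein C, had 891, 761, 1156 and 1023 in GV2 and 1311, 3789, 4401 and 7716 in GV0, a ratio of -1.93 (SE 0.53) that was smallest on array 1. MGC133636, of which no role is given here, fell by 2.57 (SE 0.35).

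Of these 15 genes, ISYNA1, MGC133636, ANGPTL6, GATM, HOPX, WFDC2 and PLAC9 passed in each alternative but the fit on the GV2 arrays alone. SERPINA5 and NALF1 did not pass without GV2 array 2, 3 or 4 (adjusted p up to 0.166 and 0.122), GSTA1 without array 1, 3 or 4 (up to 0.134), and CLDN11 without array 1, 2 or 4 (up to 0.0916). DOCK10 and PHLDB1 did not pass without area 2 on all slides (0.0549 and 0.0800), KRT8 without area 2 or 4 (up to 0.0614) and EGR1 without area 4 (0.0570).

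Genes of smaller size but higher precision were picked by p-value among those changed by at least 1.5-fold. JMJD1C, a member of the JmjC histone demethylase family, had 6249, 6797, 7215 and 5169 in GV2 and 3615, 2577, 2560 and 1969 in GV0, a ratio of 1.27 (SE 0.17, adjusted p = 0.00172). CD47, the surface ligand that restrains phagocytosis through SIRP-alpha, had 1453, 1918, 1866 and 1879 in GV2 and 686, 1035, 913 and 778 in GV0, a ratio of 1.07 (SE 0.13). TLE3, a Groucho-type corepressor, had 4295, 3767, 5136 and 3401 in GV2 against 2699, 2400, 2401 and 1922 in GV0, a ratio of 0.81 (SE 0.10). No signals overlapped in these genes. TMX3, an oxidoreductase of the endoplasmic reticulum membrane, rose by 1.03 (SE 0.14), the ciliary gene HYDIN by 0.89 (SE 0.12) and LOC100139826 by 0.76 (SE 0.10). LRRC40 and EXPH5, an effector of RAB27, were not above background in GV0 on any of the 4 arrays, so they were at least 1.67-fold (adjusted p = 0.000107) and at least 1.78-fold higher in GV2 (adjusted p = 0.000983). LRRC40 and LOC100139826 did not pass with median spot signals, nor with the authors' deposited log2 ratios. EXPH5 did not pass with flagged spots kept in the background fit.

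On the lower side, NAA35, an auxiliary subunit of the NatC acetyltransferase, had 738, 354, 350 and 284 in GV2 and 1221, 974, 976 and 888 in GV0, a ratio of -1.33 (SE 0.13, adjusted p = 0.000317). MOS, the kinase that starts the MAP kinase cascade in maturing oocytes, had 379, 333, 278 and 281 in GV2 and 732, 654, 548 and 491 in GV0, a ratio of -0.93 (SE 0.09), and 1 of its 2 other probes also fell. The signals of neither gene overlapped. The genes EXOC3L2, related to the exocyst (-0.87, SE 0.10), and FRMD1, a FERM domain protein (-0.85, SE 0.08), were lower on each array although their signals overlapped between arrays, and ARRDC1, an arrestin-domain protein, fell by 0.60 (SE 0.06). LRP4, a receptor of the LDL receptor family that binds agrin, had signals of 71, 65, 70 and 64 in GV2 and 126, 131, 132 and 123 in GV0. LRP4, ERBB4, a neuregulin receptor, and UMODL1 were above background on 0 of 4 arrays in GV2, so only bounds are given: at least 1.62-fold lower in GV2 for LRP4 (adjusted p = 3.22e-05), 1.43-fold for ERBB4 and 1.49-fold for UMODL1 (adjusted p = 0.000422 for both). ARRDC1 and ERBB4 did not pass with flagged spots kept in the background fit. ARRDC1 also did not pass with median spot signals or with the deposited log2 ratios (adjusted p up to 0.214 over all alternatives).

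Of the 1396 called genes, 166 could only be bounded, 63 higher and 103 lower in GV2, because no probe of the gene was above background on any of the 4 arrays in 1 channel. A gene with another probe above background in that channel is not in this count. The largest bounds, called or not, belonged to 5 genes. ELK4, an ETS factor of the serum response, was at least 1.89-fold higher in GV2 (adjusted p = 0.0484) but did not pass without any single GV2 array (adjusted p up to 0.170), nor with an estimated correlation (adjusted p = 0.0906 with the area as a random block). The bounds of DCN, the matrix proteoglycan decorin (at least 2.49-fold lower in GV2, adjusted p = 0.0872), TF, transferrin (1.88-fold lower, 0.201), CASP8, an initiator caspase (1.85-fold higher, 0.0832), and LRRC71 (1.79-fold lower, 0.109) belonged to genes that did not pass. With the area as a random block LRRC71 did pass (adjusted p = 0.0437). A bound sets the mean signal of the bright channel against the higher of the dim signal and the lowest signal of probes above background.

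The gene lists hold 1018 measured genes in 38 pathway lists, of which 52 rose and 66 fell in GV2; with median centring in place of loess 132 rose and 63 fell. Together 11.6% of these genes were called, near the 10.3% of all genes. Each list's counts are read beside 4.58% higher and 5.73% lower over all genes, and its median beside 0.00. With the area as a block many more genes passed, 2118 of 13534 higher and 1908 lower. List counts from that fit are read beside these and not beside the shares of the main fit.

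Of the immediate early transcription factors, genes switched on within minutes of growth factor or stress signals, 0 of 24 rose in GV2 and 4 fell, with a list median of -0.33 and 20 members below 0. EGR1 had 3892, 3600, 4480 and 2716 in GV2 and 22119, 16144, 14281 and 22436 in GV0, a ratio of -2.35 (SE 0.39). FOSB had 4610, 4103, 8082 and 3649 in GV2, against 11758, 8923, 19192 and 15017 in GV0, a ratio of -1.44 (SE 0.30). In both the groups did not overlap. FOS, like FOSB a partner of JUN proteins in the AP-1 factor, was lower in GV2 on each array but overlapped, with 7479, 15709, 20580 and 14389 in GV2 and 24233, 19865, 32281 and 38213 in GV0, a ratio of -1.02 (SE 0.26). IER2 fell by 0.86 (SE 0.20). EGR1 passed without each single GV2 array, FOSB did not without array 4, and FOS and IER2 did not without array 1 or 4 (adjusted p up to 0.122). With an estimated correlation (the area as a random block) the adjusted p of FOS was 0.0588. JUN (-1.20), NR4A1 (-1.01), ZFP36 (-0.83) and KLF6 (-0.79) did not pass. The falling members numbered 3, 4, 5 and 1 without GV2 array 1, 2, 3 or 4, and 6, 1, 1 and 0 without area 1, 2, 3 or 4 on all slides, while 11 fell and 3 rose with the area as a block.

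Of the feedback inhibitors of MAP kinase signalling, which many growth factors induce, 2 of 18 rose and 2 fell. SPRY2, given above, and DUSP6, the phosphatase of ERK (0.68, SE 0.17), rose. The nuclear phosphatases DUSP4 (-0.22, SE 0.06) and DUSP2 fell at dim signals of 101 to 143 over both groups, and DUSP2, not above background in GV2, was at least 1.19-fold lower there. With an estimated correlation neither passed (adjusted p = 0.0679 for DUSP2 and adjusted p = 0.0776 for DUSP4), and DUSP2, DUSP4 and DUSP6 did not pass without GV2 array 4, among others (adjusted p up to 0.188, 0.163 and 0.121).

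Of 25 genes of growth arrest and the ATF4 stress response, 0 rose and 4 fell, with a list median of -0.14. GADD45G had 3115, 4172, 3350 and 4447 in GV2 and 7776, 8678, 8410 and 10992 in GV0. GADD45B, its relative in stress kinase signalling, had 3342, 4128, 3797 and 4447 in GV2 and 9169, 12445, 12581 and 14381 in GV0. TXNIP, which binds thioredoxin and is induced by glucose, had 3209, 1255, 723 and 2979 in GV2 and 7521, 5613, 6076 and 5714 in GV0. The GV2 and GV0 signals did not overlap in any of them, with ratios of -1.25 (SE 0.16) for GADD45G, -1.62 (SE 0.33) for GADD45B and -1.85 (SE 0.38) for TXNIP. SESN2, a sestrin, fell by 0.43 (SE 0.05). ATF4 itself (0.11), DDIT3 (-0.33) and ASNS (-0.14) did not pass. Of the heat shock genes 1 of 29 fell, the HSP40 cochaperone DNAJB1 (-1.37, SE 0.26), and 0 rose. GADD45B did not pass without GV2 array 4 (adjusted p = 0.0554) and TXNIP did not without array 2 (0.0550). The stress list had 4, 3, 4 and 3 falling members without GV2 array 1, 2, 3 or 4, without area 1, 2, 3 or 4 it had 5, 2, 2 and 3, and with the area as a block 9 fell and 4 rose.

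Of 30 genes of mitosis 0 rose and 6 fell in GV2, where 4.58% of all genes rose and 5.73% fell. In this list 27 members lay below 0, and the median was -0.38. UBE2C, the ubiquitin-conjugating enzyme of the anaphase-promoting complex, had 4723, 3659, 3963 and 5896 in GV2 and 9547, 7866, 7102 and 5891 in GV0. PTTG1, the securin that holds separase inactive, had 3610, 2351, 3282 and 4220 in GV2, against 7524, 4067, 5231 and 4425 in GV0. Both were clearly lower in GV2 on arrays 1, 2 and 3 and near equal to GV0 on array 4, with ratios of -0.74 (SE 0.19) for UBE2C and -0.65 (SE 0.19) for PTTG1. CDCA3 fell by 0.60 (SE 0.16), the APC activator CDC20 by 0.59 (SE 0.09), the kinase AURKB of the chromosomal passenger complex by 0.57 (SE 0.10) and the kinesin KIF2C by 0.55 (SE 0.11). Only in 1 of the 6 genes that fell did the GV2 and GV0 signals not overlap. CCNB1 (-0.34), CDK1 (-0.23) and PLK1 (-0.07), the central drivers of mitotic entry, did not pass. AURKB and CDC20 passed without each single GV2 array, and the other 4 did not without at least 1 of them (adjusted p up to 0.173). Without area 2 or 4 on all slides AURKB did not pass (up to 0.0607), and neither AURKB nor CDC20 passed with median spot signals.

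The G1/S and DNA replication genes had 0 of 34 higher and 4 lower in GV2, with a median of -0.21. RRM1, the large subunit of ribonucleotide reductase (-0.48, SE 0.07), and POLE2, a subunit of DNA polymerase epsilon (-0.59, SE 0.15), were lower on each array. MCM5, of the replicative helicase, had 2493, 641, 1062 and 522 in GV2 and 1944, 1670, 2227 and 1465 in GV0, higher in GV2 on array 1 and lower on the others (-0.89, SE 0.25). E2F2 fell by 0.20 (SE 0.05) at signals of 116 to 145. Signals of GV2 and GV0 did not overlap in 2 of these 4 genes. MCM5 and E2F2 did not pass with an estimated correlation (adjusted p = 0.0556 and adjusted p = 0.0617), and RRM1 alone of these 4 passed without each single GV2 array. Without area 4 on all slides RRM1 did not pass (adjusted p = 0.0620). Without GV2 array 1, 2, 3 or 4 the falling members numbered 3, 3, 4 and 4 in mitosis and 3, 1, 2 and 1 in G1/S. Without area 1, 2, 3 or 4 they numbered 4, 1, 3 and 2 in mitosis and 2, 1, 2 and 0 in G1/S, and with the area as a block 15 and 9.

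**Figure D4:**
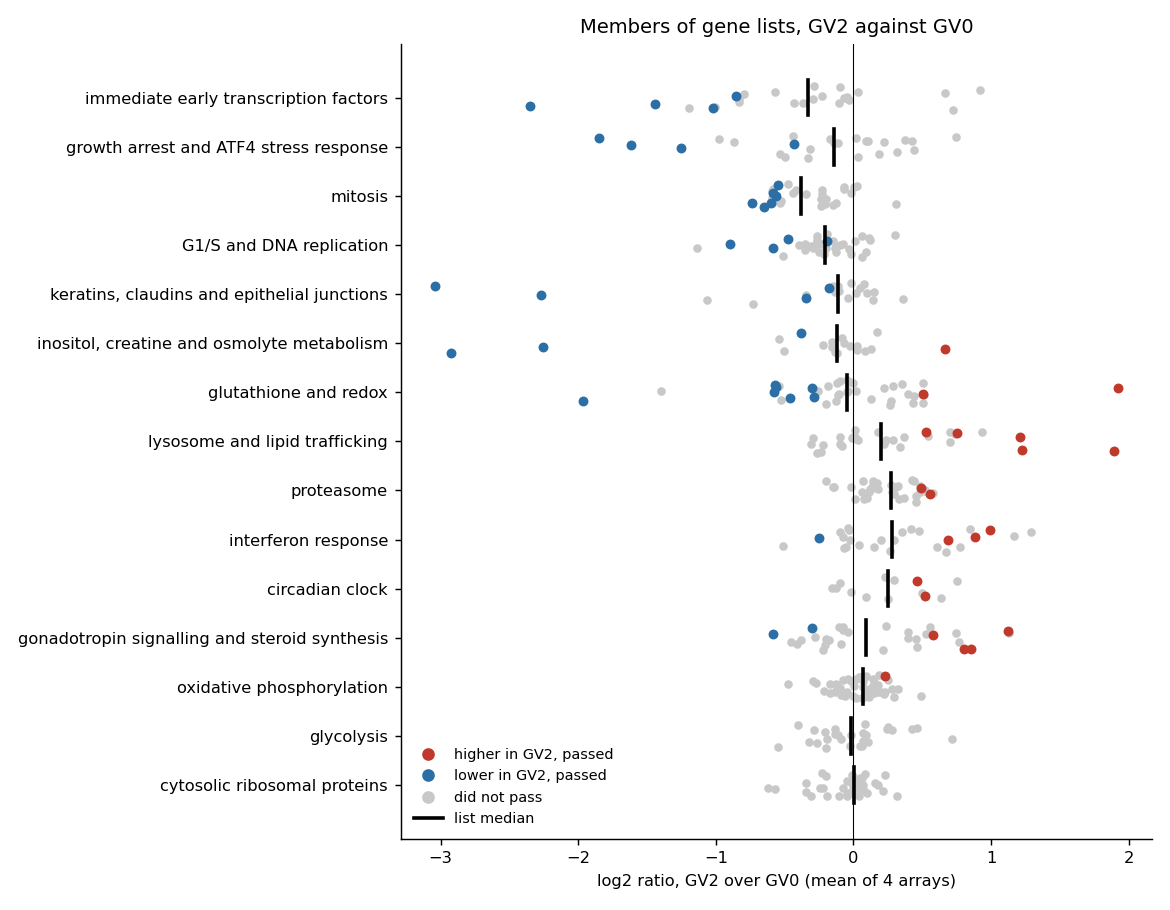
Log2 ratio of GV2 over GV0 (horizontal axis, mean of 4 arrays) for the measured members of 15 gene lists; red members rose, blue members fell, grey members did not pass, and the black bar is the list median. The medians of immediate early genes (-0.33) and mitosis (-0.38) lie left of 0, those of proteasome (0.27) and interferon response (0.28) right of it, and cytosolic ribosomal proteins centre on 0.00 with no member called.

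Genes of hormone signalling and steroid synthesis moved both ways in GV2, 4 of 30 higher and 2 lower, with a median of 0.09. PGR, the progesterone receptor, had 1061, 641, 785 and 926 in GV2 and 512, 468, 410 and 223 in GV0, a ratio of 1.12 (SE 0.26). INHA, the alpha subunit shared by the inhibins, had 39149, 35609, 36107 and 36868 in GV2 and 12512, 25125, 30233 and 18237 in GV0, a ratio of 0.86 (SE 0.22). HSD3B1, which turns pregnenolone into progesterone, had 1597, 1381, 1840 and 1661 in GV2 and 1133, 910, 1231 and 573 in GV0, a ratio of 0.80 (SE 0.23). None of these signals overlapped. NPC2, which carries cholesterol out of lysosomes, rose by 0.58 (SE 0.10), while PGRMC1, a membrane progesterone-binding protein (-0.58, SE 0.14), and CYP17A1, the theca enzyme of androgen synthesis (-0.30, SE 0.07, at signals of 115 to 172), fell. CYP11A1, the side-chain cleavage enzyme (1.13), and NPC1 (0.75) did not pass. NPC2 passed without each single GV2 array, HSD3B1 did not without any of them (adjusted p up to 0.193), and PGR, INHA, PGRMC1 and CYP17A1 did not without 2 or 3 of them (up to 0.119). Without area 3 or 4 on all slides NPC2 did not pass (up to 0.0698), nor did it with median spot signals or the deposited log2 ratios. Members that rose numbered 1, 2, 5 and 1 without GV2 array 1, 2, 3 or 4, without area 1, 2, 3 or 4 they numbered 1, 1, 3 and 1, and with the area as a block 11.

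A set of 10 genes often used to describe cumulus cells did not pass in GV2 against GV0, whereas INHA and GATM, also known from these cells, passed. INHBA, the subunit of activin A, had 38069, 36025, 37150 and 39156 in GV2 and 20987, 19443, 36511 and 28843 in GV0 (0.55, SE 0.17, adjusted p = 0.0611). FSHR, the receptor of follicle-stimulating hormone, had 1295, 1452, 1385 and 1643 in GV2 and 948, 1061, 1323 and 1075 in GV0 (0.40, SE 0.17). GJA1, the main connexin of the cumulus layer, had 19056, 14000, 14254 and 12717 in GV2 and 13520, 14876, 16877 and 15597 in GV0 (-0.03, SE 0.12). The channels overlapped in all 3. INHBA did pass in 5 of 20 alternatives, among them that with an estimated correlation (adjusted p = 0.0320 with the area as a random block). The aromatase CYP19A1 (-0.09, SE 0.25), STAR, which brings cholesterol into mitochondria (0.22, SE 0.56), and AMH (-0.22, SE 0.33) did not pass either, nor did the expansion genes HAS2 (0.55, SE 0.28), PTGS2 (not above background in GV2), PTX3 (-0.37, SE 0.29) and TNFAIP6 (-0.00, SE 0.26). Of 20 genes of cumulus expansion 1 fell, the BMP antagonist GREM1 (-0.46, SE 0.13), with 0 higher, and it did not pass without GV2 array 1, 2 or 4 (adjusted p up to 0.172).

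In the list of contact with the oocyte 2 of 19 rose and 1 fell. CTNNB1, the beta-catenin of adherens junctions, had 21433, 21277, 21198 and 24431 in GV2 and 15592, 10685, 15638 and 12593 in GV0 (0.71, SE 0.18), and the formin DAAM1 rose by 0.95 (SE 0.27). The connexin GJA5 fell by 1.14 (SE 0.32), with 112 to 129 in GV2 and 147 to 523 in GV0. In cyclic nucleotide signalling the paralogous enzymes of guanine nucleotide synthesis moved in opposite directions. IMPDH2 had 2010, 1893, 2103 and 2073 in GV2 and 1274, 1123, 1545 and 1056 in GV0 (0.71, SE 0.14), and IMPDH1 had 2352, 1887, 2194 and 1654 in GV2 and 2559, 4534, 4032 and 5544 in GV0 (-1.002, SE 0.25). The channels overlapped in neither. IMPDH2 did not pass without GV2 array 4 (adjusted p = 0.0538), and IMPDH1, GJA5, CTNNB1 and DAAM1 did not pass without array 2 or 4, among others (adjusted p up to 0.134, 0.164, 0.127 and 0.147).

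Of 39 genes of glutathione and redox balance 2 rose and 7 fell in GV2, with a median of -0.05. Beside GPX3, GPX2 rose by 0.51 (SE 0.09). TXNRD1, the cytosolic thioredoxin reductase, had 17638, 16339, 19276 and 16192 in GV2 and 26290, 28638, 23186 and 24303 in GV0, a ratio of -0.56 (SE 0.11). SOD2, the mitochondrial superoxide dismutase, had 5139, 6434, 4768 and 5516 in GV2 and 8998, 7574, 7820 and 8106 in GV0, a ratio of -0.58 (SE 0.13). The signals overlapped in neither. Beside GSTA1, the mitochondrial thioredoxin TXN2 (-0.46, SE 0.11) and the dim gene TXNRD2 (-0.28, SE 0.06) fell. SOD3 and GGT1 also passed, but were above background on 0 of 4 arrays in GV2 and were at least 1.47-fold and at least 1.23-fold lower there. SOD2, TXN2, GGT1 and GSTA1 did not pass without 3 of the GV2 arrays left out in turn (adjusted p up to 0.134). Redox members that fell numbered 5, 5, 4 and 3 without GV2 array 1, 2, 3 or 4, and without area 1, 2, 3 or 4 they numbered 4, 4, 3 and 1. With the area as a block 10 rose and 11 fell.

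Of 30 lysosome and lipid trafficking genes 5 rose and 0 fell in GV2, with 21 members above 0 and a median of 0.20. CTSC, a cathepsin that activates serine proteases, had 931, 792, 620 and 977 in GV2 and 346, 212, 541 and 390 in GV0 (1.21, SE 0.32). NEU1, the lysosomal sialidase, had 671, 650, 637 and 714 in GV2 and 509, 316, 406 and 378 in GV0 (0.75, SE 0.21), and the membrane protein LAMP2 rose by 0.53 (SE 0.13). GV2 and GV0 did not overlap in CTSC and NEU1. The lysozymes LYZ1 (1.22, SE 0.27) and LYZ2 (1.89, SE 0.46) belong to a family of close paralogs in cattle, so their probes may read each other's transcripts. LYZ2 had 153, 722, 700 and 429 in GV2 and 159, 136, 101 and 80 in GV0, with no difference on array 1. None of the 5 passed without each single GV2 array (adjusted p up to 0.142), and with an estimated correlation NEU1 did not pass (adjusted p = 0.0661). Without GV2 array 1, 2, 3 or 4 the rising members numbered 2, 1, 4 and 0, and without area 1, 2, 3 or 4 they numbered 3, 0, 3 and 0. With the area as a block 13 rose and 1 fell.

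Macrophages are rich in lysosomal genes. Of 15 measured leukocyte markers 1 rose, the macrophage marker CD68, and 0 fell, which is 6.67% called beside 10.3% of all genes. The median of the 15 was 0.01, with 9 above 0 and the lowest at -0.45. CD68 had a ratio of 0.98 (SE 0.24), with 174, 254, 284 and 424 in GV2 and 135, 142, 124 and 147 in GV0. CD68 did not pass without GV2 array 2, 3 or 4 (adjusted p up to 0.118). The summed signal of the 15 markers was 2343, 5486, 3172 and 6599 in GV2 and 2150, 5528, 3058 and 8880 in GV0, so it differed between areas more than between stages. Their median signal was only 135 to 149 in GV2 and 125 to 129 in GV0. The sum is thus in part background, and its differences need not stand for most of the markers. Of the markers, 9 were above background in both channels of all 4 arrays, and CD4 on 0 of 4 GV2 arrays. The part of such cells in the rise of lysosomal genes was not tested.

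Of 35 proteasome genes 2 rose in GV2 and 0 fell, but 31 lay above 0 and the median was 0.27. With the area as a block 14 rose, where 2118 of all 13534 genes rose in that fit. PSME1, a subunit of the activator PA28, had 3181, 4418, 3261 and 5054 in GV2 and 2873, 2468, 2684 and 2591 in GV0 (0.56, SE 0.12), and the immunoproteasome subunit PSMB8 rose by 0.49 (SE 0.10). Of 26 interferon response genes 3 rose and 1 fell, with a median of 0.28. TRIM25, a ubiquitin ligase of the RIG-I pathway, had 2744, 1476, 1868 and 1359 in GV2 and 794, 818, 1201 and 844 in GV0 (0.99, SE 0.23). IFIH1, which senses viral RNA in the cytosol (0.89, SE 0.25), was higher on 3 arrays and lower on array 3, PARP14 rose by 0.69 (SE 0.19), and USP18, which removes ISG15 from proteins, fell by 0.25 (SE 0.07). IRF1 (1.29), EIF2AK2 (1.16) and MX1 (0.78) did not pass. With an estimated correlation IFIH1 and PARP14 did not pass (adjusted p = 0.0846 and adjusted p = 0.0893), and none of the 6 called genes passed without each single GV2 array (adjusted p up to 0.171). Without GV2 array 1, 2, 3 or 4 the rising members numbered 2, 0, 2 and 1 in the proteasome and 0, 0, 3 and 0 in the interferon list. Without area 1, 2, 3 or 4 they numbered 4, 0, 1 and 0 in the proteasome and 1, 0, 3 and 0 in the interferon list.

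Keratins, claudins and junction genes had 0 of 20 higher and 4 lower in GV2, and the 2 beside KRT8 and CLDN11 were dim: KRT7 fell by 0.34 (SE 0.05) and CLDN3 by 0.18 (SE 0.05). In proteases and their inhibitors 2 of 26 rose and 3 fell: PLAU and the aggrecanase ADAMTS5 (0.44, SE 0.09) rose, and SERPINA5, WFDC2 and SERPINF1 (-0.55, SE 0.15), a secreted serpin that inhibits vessel growth, fell. The hypoxia and angiogenesis list had 2 of 27 higher and 3 lower. ANGPT1, the activating ligand of TIE2 (0.53, SE 0.14), rose with ANGPT2, while the growth factor PDGFA had 177, 351, 212 and 295 in GV2 and 380, 849, 339 and 573 in GV0 (-1.003, SE 0.27), and TIE1 (-0.24, SE 0.06) and ANGPTL6 fell. Of 15 endothelial markers 0 rose and 4 fell, beside 4.58% of all genes higher and 5.73% lower. Only 8 of the 15 were above background in both channels of all 4 arrays. Their mean log2 ratio was -0.11, -0.21, -0.04 and -0.13 on arrays 1 to 4. Negative control spots had a median of -0.11, -0.10, -0.05 and -0.14 there. Falling markers numbered 2, 2, 3 and 2 without GV2 array 1, 2, 3 or 4, and 2, 0, 1 and 1 without area 1, 2, 3 or 4. The summed signal of the 15 was 2099 to 2303 in GV2 and 2307 to 2536 in GV0. The part of such cells, or of such an offset, in these values was not tested. In the matrix list POSTN, periostin (1.31, SE 0.38), rose, and the fibrillin FBN1 (-1.24, SE 0.29) and elastin ELN (-0.41, SE 0.06) fell, 1 and 2 of 34. POSTN, PDGFA and CLDN3 did not pass without any single GV2 array (adjusted p up to 0.154, 0.128 and 0.143), and ADAMTS5, SERPINF1, ANGPT1, TIE1 and FBN1 did not without 1 to 3 of them (up to 0.125). CLDN3, ANGPT1 and POSTN did not pass with an estimated correlation (adjusted p = 0.0702, adjusted p = 0.0673 and adjusted p = 0.0754).

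In signalling by the TGF-beta and BMP family 2 of 29 rose and 1 fell. The type I receptor ACVR1 had 1071, 1127, 1070 and 1008 in GV2 and 523, 671, 834 and 520 in GV0 (0.77, SE 0.20), and SKIL, a repressor of SMAD activity, rose by 0.78 (SE 0.22). ID1, a target of BMP signalling, had 128, 137, 125 and 166 in GV2 and 267, 203, 168 and 368 in GV0 (-0.80, SE 0.21). Of 31 Wnt genes 2 rose and 4 fell. The R-spondin receptor LGR4 (0.65, SE 0.16) and CCDC88C, a partner of Dishevelled (1.05, SE 0.28), rose, whereas the transcription factors TCF7 (-0.69, SE 0.17) and TCF7L1 (-0.26, SE 0.05), the ligand WNT6 (-0.63, SE 0.16) and the Dishevelled antagonist NKD1 (-0.19, SE 0.05) fell. The Notch target HES1 fell by 0.40 (SE 0.06), 1 of 15 genes, and the Hedgehog-binding GAS1 by 0.47 (SE 0.08), 1 of 12. Of 19 Hippo genes the kinase LATS2 rose by 0.57 (SE 0.14), and of 18 genes of the IGF system the binding protein IGFBP4 rose by 0.62 (SE 0.13). HES1 and GAS1 passed without each single GV2 array, and the other called genes of these lists did not without at least 2 of them (adjusted p up to 0.142). Neither HES1 nor GAS1 passed with median spot signals, the deposited log2 ratios or flagged spots kept in the background fit. GAS1 also did not pass without area 4 on all slides (adjusted p = 0.0579). CCDC88C and NKD1 did not pass with an estimated correlation (adjusted p = 0.0542 and adjusted p = 0.0679).

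Chromatin genes, listed because the stages are defined by the chromatin of the oocyte, had 2 of 39 higher and 2 lower in GV2 cumulus cells. Beside YEATS4, the H3K27 demethylase KDM6A had 398, 311, 344 and 420 in GV2 and 215, 185, 232 and 197 in GV0 (0.83, SE 0.21). H2AX, the histone variant that is phosphorylated at DNA breaks, had 3834, 2112, 2876 and 2061 in GV2 and 6254, 3923, 4746 and 3461 in GV0 (-0.77, SE 0.13), lower on each array although the groups overlapped. The deacylase SIRT6 had 390, 388, 290 and 208 in GV2 and 540, 494, 626 and 474 in GV0 (-0.78, SE 0.14). Among splicing factors 4 of 33 rose and 2 fell. SRSF10, which is regulated by dephosphorylation, had 4580, 4260, 3517 and 3248 in GV2 and 5673, 6004, 7208 and 7213 in GV0 (-0.75, SE 0.16), and HNRNPA1 fell by 0.35 (SE 0.10). TRA2A (0.51, SE 0.10), CLK4, a kinase of SR proteins (0.53, SE 0.11), SF3B1 (0.31, SE 0.07) and SF3B2 (0.36, SE 0.08) rose. The direction of HNRNPA1 flipped to 0.16 with median centring in place of loess. KDM6A did not pass without any single GV2 array (adjusted p up to 0.123). SRSF10 did not without array 3 or 4 (up to 0.0800), and HNRNPA1, CLK4, SF3B1 and SF3B2 did not without at least 1 of them (up to 0.156). In splicing 3, 1, 1 and 0 rose and 2, 0, 0 and 0 fell without area 1, 2, 3 or 4.

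Genes of autophagy had 2 of 27 higher and 0 lower: GABARAPL1, which decorates autophagosomes, had 2548, 2211, 2263 and 1532 in GV2 and 1496, 1398, 724 and 540 in GV0 (1.14, SE 0.28), and the cargo receptor SQSTM1 rose by 0.55 (SE 0.15). In apoptosis 0 of 25 rose and 3 fell, the adaptor FADD (-0.53, SE 0.11), BCL2 (-0.33, SE 0.07) and HRK (-0.23, SE 0.06). In regulated exocytosis RAB27B (0.24, SE 0.07) rose with CADPS2, and SCG5, a chaperone of prohormone convertase (-0.61, SE 0.16), and CPLX1, a complexin (-0.57, SE 0.08), fell, 2 and 2 of 29. In the circadian clock PER3 (0.46, SE 0.12) and CSNK1E, a kinase of period proteins (0.52, SE 0.13), rose, 2 of 13 with 0 lower. Of the inositol and creatine list 1 of 19 rose and 3 fell: the creatine kinase CKB rose by 0.67 (SE 0.17), higher on 3 of 4 arrays, and the creatine transporter SLC6A8 fell by 0.38 (SE 0.08) beside ISYNA1 and GATM. Of 29 neurotrophic and neuropeptide genes the netrin receptor UNC5B, not above background in GV0 and at least 1.20-fold higher in GV2, rose beside GFRA1 and NPY1R and 0 fell. Energy metabolism showed few calls. Of 53 genes of oxidative phosphorylation 1 rose, COX6A1 of cytochrome c oxidase (0.23, SE 0.06), of 22 cholesterol synthesis genes 1 rose, INSIG2, which retains SREBP in the endoplasmic reticulum (1.07, SE 0.27), and of 23 zinc genes 1 rose, the transporter SLC30A4 (0.44, SE 0.13). Of 20 aminoacyl-tRNA synthetase genes TARS3 rose and the scaffold AIMP2 fell by 0.32 (SE 0.08). In glycolysis 0 of 27 and in cytosolic ribosomal proteins 0 of 49 passed in limma (2 and 4 at an unadjusted p under 0.05; 5 and 6 with the area as a block). With an estimated correlation the calls of PER3 (adjusted p = 0.0699), CSNK1E (adjusted p = 0.0616), CKB (adjusted p = 0.0696), COX6A1 (adjusted p = 0.0515) and SCG5 (adjusted p = 0.0593) were lost, which leaves the clock list with 0 calls. CPLX1 and BCL2 passed without each single GV2 array, and the other called genes first named among these lists did not without at least 1 array (adjusted p up to 0.185). BCL2 did not pass without area 1, 2 or 4 on all slides (adjusted p up to 0.0628). It also did not pass with median spot signals, the deposited log2 ratios or flagged spots kept in the background fit.

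The labelled cell type was checked with 18 markers of cumulus and granulosa cells, all measured. Of these, 17 were above background in both channels of all 4 GV2 arrays, AMHR2 being the other. Their summed signal was 147083, 123781, 128185 and 127162 in GV2 and 83620, 101989, 134412 and 106384 in GV0. INHA rose and GATM fell as described. Of 19 oocyte markers 2 rose, the zona protein ZP4, not above background in GV0 and at least 1.36-fold higher in GV2, and the germ cell factor NOBOX (0.31, SE 0.07), and 1 fell, MOS. Their summed signal overlapped between groups, at 3109 to 3500 in GV2 and 3367 to 3692 in GV0. Only 10 of the 19 were above background in both channels of all 4 arrays, so the sum is in part background. Of 15 theca and stroma markers RGS5 rose by 0.21 (SE 0.05) and CYP17A1 fell, with sums of 12022 to 19362 in GV2 and 13958 to 15765 in GV0, and of 5 red blood cell markers EPB42 rose by 0.25 (SE 0.06). Above background in both channels of all 4 arrays were 10 of the 15 and 3 of the 5. NOBOX, RGS5 and EPB42 did not pass without 2 or 3 of the GV2 arrays left out in turn (adjusted p up to 0.110).

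Against the other stages the dye effect cancels, and GV2 could be set against GV1 and GV3 directly. In limma 0 of 36321 probes passed against GV1 (411 at an unadjusted p under 0.05) and 0 against GV3 (1097), which is 0% in both. With the area as a block 0 and 0 passed as well (1477 and 3815 unadjusted, smallest adjusted p 0.986 and 0.306). In the 30 genes of largest change, the 95% interval covered 0 in 30 of 30 for GV2 minus GV1 and for GV2 minus GV3. These intervals, and those given below, are from the fit without the area as a block. That fit leaves out the pairing of arrays by area, so the intervals may run wide. They do not show that the stages are alike.

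**Figure D5:**
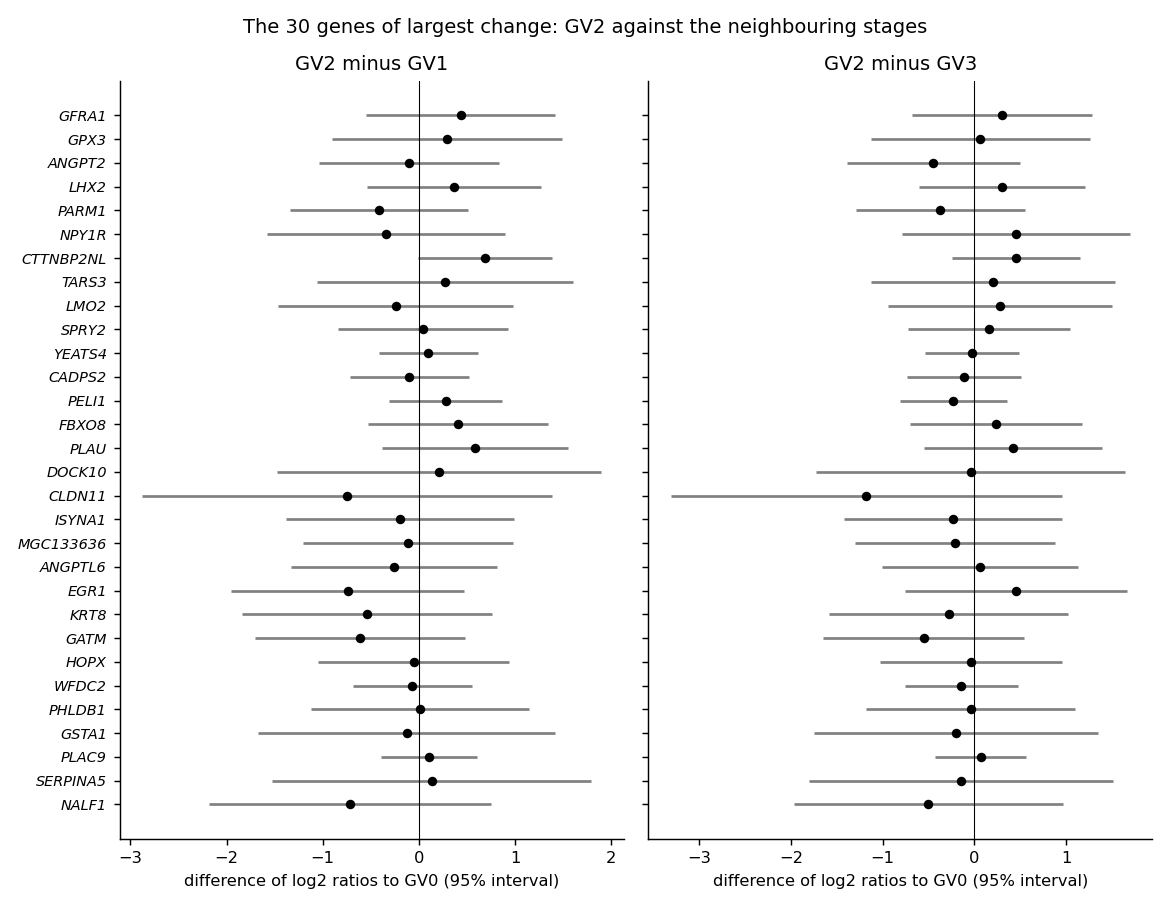
Difference of the log2 ratio to GV0 (horizontal axis, log2 units) between GV2 and GV1 (left panel) and between GV2 and GV3 (right panel) for the 30 genes of largest change. The 95% intervals are from the model without the area as a block and may run wide. Differences range from -0.74 to 0.68 against GV1 and from -1.18 to 0.46 against GV3, and each interval covers 0.

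The log2 ratios of the leading genes stood side by side with those of GV1 and GV3, which were also measured against GV0, by their Cy3 signals apparently on the same pools, although no label says so. YEATS4 had 1.48 in GV2, 1.39 in GV1 and 1.51 in GV3, and the interval of GV2 minus GV1 ran from -0.41 to 0.61. PLAC9 had -1.94 in GV2, -2.04 in GV1 and -2.01 in GV3, with an interval of GV2 minus GV1 from -0.40 to 0.60. EGR1 had -2.35 in GV2, -1.61 in GV1 and -2.80 in GV3, and its interval against GV1 ran from -1.95 to 0.47. CTTNBP2NL had 1.62 in GV2, 0.94 in GV1 and 1.17 in GV3, with an interval against GV1 from -0.01 to 1.38.

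The smallest p-values between stages did not pass the correction. TMX3 was higher in GV2 than in GV1 by 0.83 (95% interval 0.40 to 1.25) and than in GV3 by 0.95 (0.53 to 1.38), and stood at 1.03 in GV2, 0.20 in GV1 and 0.08 in GV3 relative to GV0. Its GV2 signals were 215, 248, 384 and 292, against 102, 120, 188 and 150 in GV0. BRWD3, a bromodomain protein, differed from GV1 by 0.97 (0.44 to 1.49), with SAMD12 at 0.45, CRHR1, the receptor of corticotropin-releasing hormone, at 0.23 and SOX2 at 0.20. Below GV1 lay ADGRL1 (-0.46), HOOK1 (-0.37), the nucleoside transporter SLC28A2 (-0.31), TLR1 (-0.26) and HPD (-0.22). Against GV3, IHH, the Hedgehog ligand, had a difference of 0.59 (0.28 to 0.91), MYL4 0.48, LRRC40 0.41 and JAGN1 0.37. KLHL22 (-0.81), CNPY4 (-0.57), PCBP3 (-0.35), ANKRD44 (-0.35) and PIP5KL1 (-0.33) had lower values in GV2 than in GV3. IHH was bright in both channels, with 22735, 21429, 26626 and 27638 in GV2 and 32226, 22172, 34722 and 32104 in GV0. Without GV2 array 4 a single probe passed against GV3, that of MOCS1, an enzyme of molybdenum cofactor synthesis, with a difference of 1.26 (adjusted p = 0.0227), against 0.93 over all arrays.

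Part of the array carries no gene name here. Of 17663 tested probes without a symbol, 1074 were higher in GV2 and 1120 lower (12.4%). Where a called gene had other tested probes (330 genes), another probe moved the same way and passed in 85 and moved the opposite way and passed in 22.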

How the data were processed

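The members and gene lists were chosen with earlier results of these data known. The authors deposited scanner tables with mean and median spot intensity and background intensity in both channels, not normalised, per the file headers, and a flag per spot (unit: other), deposited with a rule that is not given in the sources used here. The deposited series matrix holds log2 ratios; on each array they correlated at 1.00 with loess-normalised log2 ratios of median signals, stage over GV0, with array medians near 0. Their making is not stated per the labels, and they served as an alternative.

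Mean signals were corrected with normexp (offset 50, flagged spots left out) and loess-normalised within each array in limma 3.58.1 (R 4.3.3, statmod 1.5.0). Each array has 45220 spots, of which 1426 are controls and 153 negative controls. Of 43794 probes, 36321 were kept because a channel exceeded the negative control mean plus 2 SD on at least 3 of 4 arrays of a stage, and 7473 were removed. A spot above that limit is called above background. Signals are per-channel values after loess and Aquantile, on a linear scale. Platform annotation gave 21790 probes a single symbol and 22004 none. Of 15229 symbols, 14114 were current in the RefSeq ARS-UCD2.0 gene table, 982 were renamed and 133 matched neither way. The brightest kept probe stood for a gene.

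All 12 arrays entered 1 limma model with a coefficient per stage (9 residual degrees of freedom, spread pooled over 3 stages). P-values were adjusted by Benjamini-Hochberg over the kept probes, with 0.05 as threshold. Area numbers pair the arrays: Cy3 signals of the same area correlated at 0.988 to 0.997 across slides (0.923 to 0.973 between areas), and deviations of ratios at 0.492 to 0.735 in 12 of 12 same-area pairs. No label says that the stages shared their GV0 pools. If they did, as these correlations would have it, the 9 degrees of freedom overstate the information, and p-values against GV0 may run low. Intervals between stages, which leave the pairing by area out, may then run wide. The area as a random block, with an estimated correlation, was an alternative.

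Genes were named by rule: the 15 each way of largest change that passed, had 1 sign on all 4 arrays and were above background in the brighter channel on all 4; the 10 each way of smallest p with a fold of at least 1.5; the 5 each way of smallest p between stages; list members; the 5 largest bounds; and 10 cumulus cell genes. Alternatives covered spot signal, background, normalisation, filter, block, threshold and arrays left out; the list counts with arrays left out were added after seeing the data. No sequence was used here.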

Additional observations from a re-analysis of the deposited data

Results flagged for a closer look

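In 9 of the 186 named genes, 1 of the 4 GV2 arrays lay far from the other 3 in its log2 ratio of GV2 over GV0 by Dixon's ratio of gap to range. Chance alone gives such a result in about 1 of 20 genes, which is close to the number seen. CLK4 was 0.78 on array 1, against 0.43 to 0.48 on the others, and HSD3B1 was 1.54 on array 4, against 0.49 to 0.60. HYDIN was 1.30 on array 4, with the others at 0.70 to 0.80, and GADD45G was -1.06 on array 2, with the others at -1.33 to -1.31. JMJD1C was lowest on array 1 at 0.79, where the lowest of the others had 1.39, and KRT7 was -0.21 on array 3 and -0.39 on the others. MOS was -0.80 on array 4, against -0.98 to -0.95, and HPD, which did not pass, was -0.14 on array 4, against -0.10 to -0.09. LYZ2 showed no rise on array 1 (-0.05), where the others had 2.40 to 2.80; LYSB, another lysozyme, was -0.52 on that array and 3.39 to 3.99 on the others.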

How the results depend on the processing

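The probe, gene and list-member counts of GV2 against GV0 (4270, 1396 and 118) became 442, 174 and 32 with median spot signals, 505, 209 and 37 with the series matrix, 396, 172 and 31 with flagged spots kept in the background fit, 1134, 469 and 65 when both channels had to exceed background on each array, 1023, 433 and 66 with a fold of at least 1.5, and 0, 0 and 0 with the GV2 arrays alone. The area as a replicate block gave 10805, 4026 and 336. Median centring gave 2147 genes and 195 list members, 132 higher and 63 lower, where loess gave 52 and 66. Counts without a GV2 replicate were 1672 to 2968 probes, 536 to 956 genes and 51 to 86 list members; without a replicate on all slides they were 1196 to 2372, 386 to 862 and 33 to 87. Against GV1 and GV3 the counts stayed at 0 in each alternative run, except 1 probe against GV3 without GV2 replicate 4 (0 to 1). Other alternatives moved these counts by less than 1.5 times. Of 3658 values of named genes under alternatives, 3 of genes that passed turned sign, and 25 of 7 genes that did not pass (GJA1, HPD, JAGN1, TNFAIP6, ADGRL1, AMH and IHH). The 3 were TLR1, at 0.047 with median spot signals and 0.056 with the series matrix, and HNRNPA1 at 0.16 with median centring. Of 161 named genes that passed, 23 did so in each alternative but the GV2 arrays alone. The causes were not tested. Signals near background limit the dim genes.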
